A study of Mus musculus with 36 samples.

Results

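Hypoxia and glycolysis response genes were followed in whole primary tumors and control glands of the 4T1- and the Py230-based intraductal model. The set held 10 genes, namely Hif1a, Egln3, Slc2a1, Pgk1, Ldha, Pdk1, Bnip3, Car9, Ndrg1 and Ankrd37, and all 10 were found by gene symbol among the 21650 genes of the deposited expression table. They were taken by name as known members of the response to low oxygen and of glycolysis, with earlier results of these data known. The libraries fell in 12 groups of 3, 36 in all, and every group came from the third mammary gland of lactating females that were injected through the teat 1 h after weaning, after mating as young adults. 4T1 tumors grew from 4T1 cells, a metastatic mammary tumor line of BALB/c origin that expresses firefly luciferase constitutively, in BALB/c females. Py230 tumors grew from Py230 cells, a line from spontaneous tumors of C57BL/6 mice that carry the polyoma middle T antigen behind the MMTV promoter, which acts in mammary epithelium, in C57BL/6 females. Control glands of BALB/c and of C57BL/6 received Matrigel, the basement membrane gel in which the cells were suspended, without cells. Each of these kinds was sampled 1, 3 and 6 weeks after injection (w p.i.), called weeks 1, 3 and 6 below. Each model is 1 cell line in 1 strain, so line and strain cannot be told apart between the tumors, and the number of injected cells differed as well.

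Cells sense oxygen through the HIF pathway. With oxygen, prolyl hydroxylases mark the alpha subunit of the hypoxia-inducible factor, made by Hif1a and its relatives, for destruction by the von Hippel-Lindau protein. Without it the subunit persists, pairs with Arnt and binds short DNA elements beside genes of glucose uptake, glycolysis, lactate and acid export, mitochondrial restraint and vessel growth. Tumors are known for this program, since they outgrow their vessels, and Car9 protein is a common tissue marker of it. Much of the control of Hif1a acts on its protein, which RNA does not show.

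The DNA element that the HIF complex reads has the core ACGTG or GCGTG, so the start sites of the genes were searched for both cores on both strands. RefSeq windows (GRCm38.p6, the build of mm10) of 250 bases before to 50 bases after the start were at hand for 9 of the 10 genes, Ndrg1 being the other. Of all 32817 mouse windows, 43.8% held at least 1 of the cores, 20.6% held 2 or more matches and 3.86% held 4 or more. A palindromic CACGTG counts as 1 match on each strand. The sequences below are the 250 bases before the start for 3 genes that were called higher in both tumors at week 6 (Car9, Egln3 and Ankrd37), for the gene of the factor itself (Hif1a) and for Ldha and Pdk1, which were called higher in no tumor. Lower case marks sequence outside a match and capitals mark the matches, read 5′ to 3′ along the gene.
Car9: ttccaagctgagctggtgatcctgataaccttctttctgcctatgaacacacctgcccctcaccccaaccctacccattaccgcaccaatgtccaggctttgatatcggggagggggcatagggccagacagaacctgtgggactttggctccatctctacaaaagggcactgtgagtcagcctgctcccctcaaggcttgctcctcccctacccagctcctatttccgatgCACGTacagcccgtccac
Egln3: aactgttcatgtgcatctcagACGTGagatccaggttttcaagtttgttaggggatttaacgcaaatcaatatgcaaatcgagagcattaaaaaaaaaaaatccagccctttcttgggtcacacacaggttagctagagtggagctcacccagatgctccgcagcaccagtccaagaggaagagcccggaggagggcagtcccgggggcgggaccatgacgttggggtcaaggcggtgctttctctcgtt
Ankrd37: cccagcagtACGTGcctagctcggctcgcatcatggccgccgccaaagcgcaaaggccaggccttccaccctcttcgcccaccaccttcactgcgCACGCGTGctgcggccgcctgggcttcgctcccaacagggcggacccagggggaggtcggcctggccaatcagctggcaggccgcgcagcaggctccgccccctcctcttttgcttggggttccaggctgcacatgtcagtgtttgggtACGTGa
Hif1a: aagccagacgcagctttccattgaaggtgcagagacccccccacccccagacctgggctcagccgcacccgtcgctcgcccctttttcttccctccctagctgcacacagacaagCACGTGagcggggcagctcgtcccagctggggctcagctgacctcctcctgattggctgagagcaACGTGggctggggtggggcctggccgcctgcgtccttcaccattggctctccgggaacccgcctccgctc
Ldha: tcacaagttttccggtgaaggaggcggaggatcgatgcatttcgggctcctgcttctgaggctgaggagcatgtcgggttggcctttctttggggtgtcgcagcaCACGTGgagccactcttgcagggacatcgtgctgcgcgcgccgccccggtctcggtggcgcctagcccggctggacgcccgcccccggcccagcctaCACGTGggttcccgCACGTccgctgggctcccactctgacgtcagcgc
Pdk1: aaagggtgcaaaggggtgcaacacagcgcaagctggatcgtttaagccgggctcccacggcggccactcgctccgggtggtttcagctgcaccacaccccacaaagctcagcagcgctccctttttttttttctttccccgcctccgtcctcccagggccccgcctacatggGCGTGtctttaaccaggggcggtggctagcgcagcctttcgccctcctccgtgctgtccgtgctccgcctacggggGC

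The Car9 window (chr4:43506776-43507075, + strand) held a single core, on the opposite strand at position -18 from the start, and few CpG dinucleotides (5). The Egln3 window (chr12:54203825-54204124, - strand) held 1 core, at -229. The Ankrd37 window (chr8:45999801-46000100, - strand) held 4 matches, a GCGTG pair on opposite strands among them. The Hif1a window (chr12:73907617-73907916, + strand) held 3 matches, 2 of them in 1 palindrome. The first Ldha window (chr7:46845554-46845853, + strand) held 7 matches, the most of any window of these genes, and 2 of them lie after the start and are not shown. The first Pdk1 window (chr2:71872974-71873273, + strand) held 2 GCGTG cores, at -78 and -2, the second of which runs past it so that only its first letters are shown. Both genes have another start, whose window held 2 matches for Ldha and 0 for Pdk1. Of the genes not shown, Slc2a1 and Pgk1 held 2 matches each and Bnip3 held 5. A match is a stretch of letters and not a measured binding site.

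By GENCODE vM21, the genes lie on mouse chromosome 12 (Hif1a, 73901375 to 73947530, and Egln3, 54178981 to 54203860), 4 (Slc2a1, 119108711 to 119137983, and Car9, 43506966 to 43513729), 7 (Ldha, 46841475 to 46855627, and Bnip3, 138890836 to 138909519), X (Pgk1, 106187100 to 106203699), 2 (Pdk1, 71873224 to 71903858), 15 (Ndrg1, 66929318 to 66969640) and 8 (Ankrd37, 45996902 to 46005707), and each is annotated as protein coding. The deposited values are scores: the genes of each library average 0, with an SD of 1, so a score is the distance of a gene from its library's average in SD units on a log scale. Depth per library cannot be read from scores. Differences are given in score units ± SE from limma (1 mean per group, all 36 libraries, Benjamini-Hochberg adjustment over all genes, threshold 0.05), and a gene is said to rise, fall or be called only past this threshold. Nothing in the labels says that libraries of a group came from separate animals, so p-values rest on the spread between these samples. That spread is 1 estimate per gene over all 12 groups, and the compared groups can vary more or less than it.

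A score unit was worth about 2.99 log2 units, from the authors' mean normalized counts over 13567 genes with a mean count of at least 100, and 90.3% of these genes lay within 0.1 log2 of the conversion. Approximate log2 and fold values below use it. For Car9, Ankrd37 and Egln3 the authors' mean normalized count was 0.36, 0.32 and 0.20 log2 above the converted scores, so their folds are rough, and for the other 7 genes the gap was at most 0.06. The authors' mean normalized counts over all samples were 237 for Car9 and 19.0 for Ankrd37, against 593 to 8603 for the others, so Ankrd37 rests on few reads.

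By correlation, every tumor library of week 1 was closer to its glands than any tumor library of week 6. At week 3 this was not so for replicate 1 of either model. The correlation of each tumor library with the mean of its own strain's Matrigel glands ran from 0.965 to 0.991 at week 1, from 0.936 to 0.992 at week 3 and from 0.898 to 0.956 at week 6. At week 3 the libraries of a group stood apart: 4T1 replicate 1 reached 0.948 and replicates 2 and 3 reached 0.989 and 0.992, while Py230 replicate 1 reached 0.936 and replicates 2 and 3 reached 0.976 and 0.990. Luminal markers such as Krt8 and Krt18 were present throughout, with list means of 1.26 to 1.93 in all tumor libraries. The mean score of the 6 adipocyte markers (Adipoq and Plin1 first) was 1.71 to 2.29 in the 18 glands, 0.782 in 4T1 replicate 1 and 2.02 and 2.20 in 4T1 replicates 2 and 3 at week 3, and -0.101 to 0.174 in 4T1 and 0.0714 to 1.10 in Py230 tumors at week 6.

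**Figure D1:**
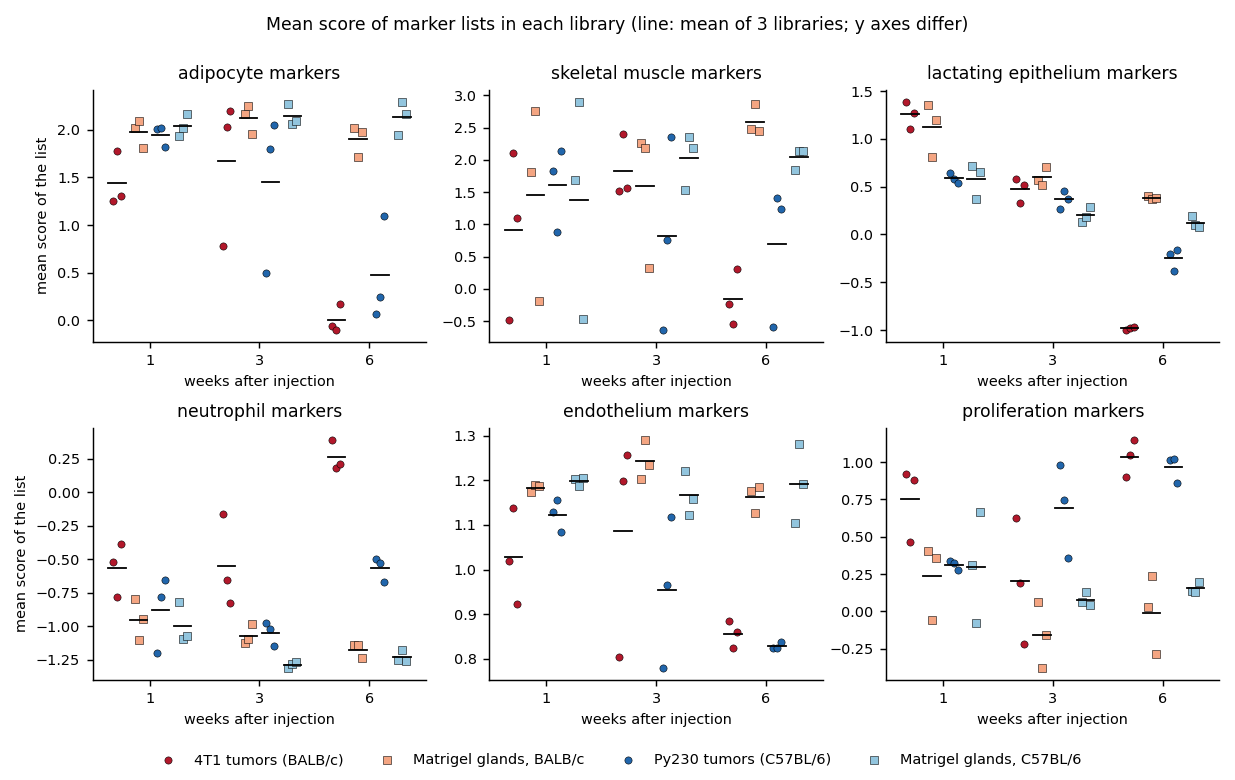
Mean expression score of 6 marker lists (y axis, SD units of a library, scales differ between panels) in each library, against weeks after injection (x axis), for 4T1 and Py230 tumors and the Matrigel glands of both strains, with a line at the mean of 3 libraries. At week 6 the adipocyte mean was 0.0054 in 4T1 and 0.472 in Py230 tumors against 1.90 and 2.14 in their glands, and the neutrophil mean was highest in 4T1 tumors (0.263).

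At 6 w p.i. both tumors stood apart from glands of the same strain in 7 of the 10 genes. In 4T1 tumors all 7 were higher, namely Hif1a, Egln3, Slc2a1, Pgk1, Car9, Ndrg1 and Ankrd37. In Py230 tumors 5 were higher (Hif1a, Egln3, Pgk1, Car9 and Ankrd37) and 2 were lower (Bnip3 and Ndrg1). Of all genes 38.6% were called higher and 21.5% lower in 4T1 tumors, and 28.8% higher and 18.7% lower in Py230 tumors, so a large share of the transcriptome differed from the gland at this time. The median difference of the 10 genes was 0.395 in 4T1 and 0.226 in Py230 tumors, beside 0.0651 and 0.0337 for all genes. In log2 terms the median of all genes was shifted by 0.19 and 0.10, and member differences are to be read against these shifts. Leaving out any library of these groups gave 6 or 7 called genes for 4T1 and 5 to 7 for Py230.

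Before that the count was lower. At week 1, 4T1 tumors had Hif1a and Ankrd37 higher and Pdk1 lower, beside 9.91% of all genes higher and 6.72% lower, and none of these 3 calls held without 4T1 replicate 1, without 4T1 replicate 3 or without BALB/c gland replicate 2. At week 1 no member was called in Py230 tumors, where limma called 0 genes higher and 2 lower (0% and 0.00924%), and no member reached an unadjusted p under 0.05. At week 3 no member was called in 4T1 tumors (2.1% of all genes higher, 1.15% lower, 1 member at an unadjusted p under 0.05), and 1 was called without replicate 2 or without replicate 3. At week 3, Py230 tumors had Egln3 and Car9 higher and Bnip3 lower, beside 12.8% of all genes higher and 6.9% lower, and only the call of Car9 remained without Py230 replicate 1.

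**Figure D2:**
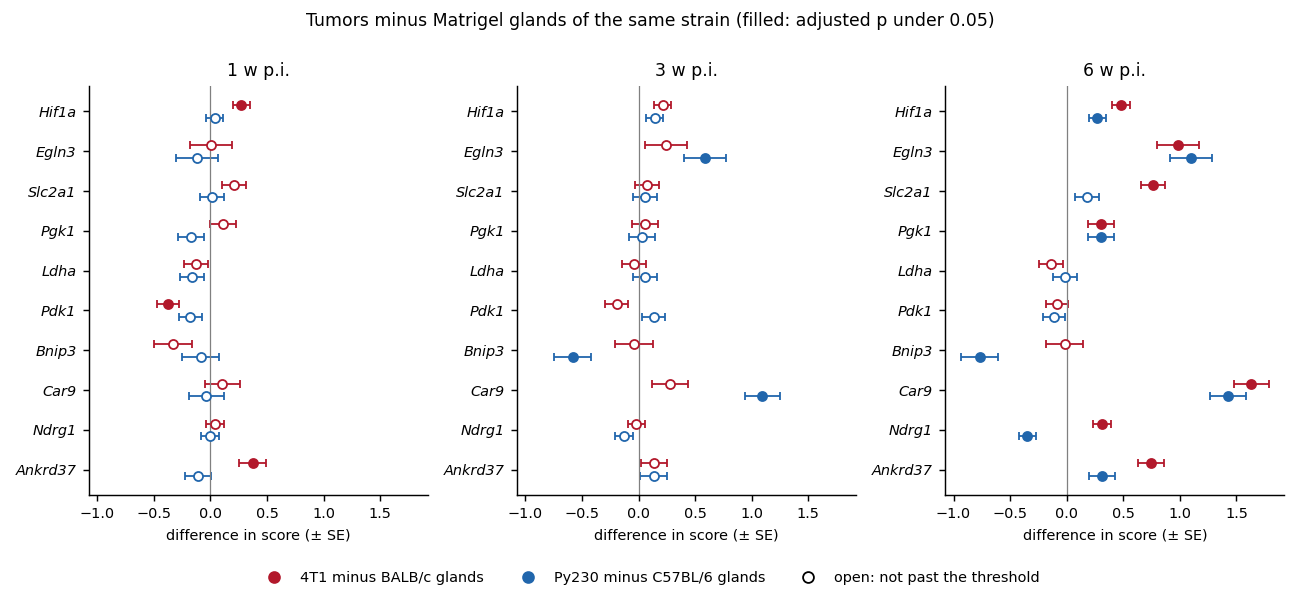
Difference in expression score (x axis, SD units of a library, bars ± SE from limma) between tumors and Matrigel glands of the same strain for the 10 genes (y axis) at weeks 1, 3 and 6, with filled points for an adjusted p under 0.05. Car9 and Egln3 lie farthest right in both models at week 6, while Ndrg1 lies right of 0 in 4T1 and left of 0 in Py230 tumors.

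Car9, the membrane carbonic anhydrase that helps to keep the cell interior alkaline when acid is made, had the largest difference of the set in both models at week 6. In the 18 Matrigel glands it scored from -0.974 to -0.449 with a median of -0.755. Py230 tumors scored -0.896, -0.711 and -0.579 at week 1, 0.768, 0.490 and 0.0414 at week 3, and 0.448, 0.695 and 0.540 at week 6. 4T1 tumors scored -0.340, -0.817 and -0.397 at week 1, -0.104, -0.711 and -0.809 at week 3, and 0.951, 1.05 and 0.791 at week 6. All Py230 libraries from week 3 on thus lay above every gland, whereas 4T1 replicates 2 and 3 at week 3 lay within the range of the glands and 4T1 libraries cleared that range together only at week 6.

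The rise of Car9 over the gland at week 6 was 1.63 ± 0.155 in 4T1 tumors (log2 about 4.88, 95% CI 3.93 to 5.83, limma adjusted p = 2.89e-09) and 1.42 ± 0.155 in Py230 tumors (log2 about 4.26, 95% CI 3.31 to 5.21, adjusted p = 1.43e-07). At week 3 it was 1.09 ± 0.155 in Py230 tumors (limma adjusted p = 3.14e-05). Without Py230 replicate 1 this difference was 0.926 and still past the threshold. The call was lost only in a fit of the compared groups alone (adjusted p = 0.101). Between models, Car9 at week 3 was lower in 4T1 than in Py230 tumors by a score of -0.97 ± 0.155 (4.08e-05 as limma's adjusted p), about 0.133 times the Py230 level. This held when any library was left out (-1.19 without 4T1 replicate 1, which had the highest Car9 of its group), but not in a fit of these groups alone (adjusted p = 0.107). With each tumor's own glands subtracted it was -0.816 ± 0.219 (limma adjusted p = 0.0213), a call that was lost without 4T1 replicate 2 (adjusted p = 0.0512), Py230 replicate 1 (0.101) or C57BL/6 gland replicates 1 or 3. At week 6 the Car9 scores of the models did not overlap, and the difference of 0.371 ± 0.155 was not past the threshold (unadjusted p = 0.0242, limma adjusted p = 0.0576), though it was in a fit of the compared groups alone (adjusted p = 0.0116) and without 4T1 replicate 3 (0.0475). With glands subtracted it was 0.207 ± 0.219 (limma adjusted p = 0.535). The 4T1 minus Py230 difference of Car9 fell by 1.19 ± 0.219 from week 1 to week 3 (adjusted p = 0.00132) and rose by 1.35 ± 0.219 from week 3 to week 6 (5.56e-05).

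Egln3, a prolyl hydroxylase that hydroxylates HIF alpha subunits and is itself a HIF target, was raised beside Car9. Its glands scored from 0.277 to 0.984 with a median of 0.446. 4T1 tumors scored 0.775, 0.358 and 0.563 at week 1, 1.20, 0.615 and 0.459 at week 3, and 1.78, 1.86 and 1.33 at week 6. Py230 tumors scored 0.556, 0.258 and 0.323 at week 1, 1.29, 1.03 and 0.783 at week 3, and 1.497, 1.669 and 1.176 at week 6. All 6 tumors of week 6 lay above every gland, and at week 3 this was so for 4T1 replicate 1 and for Py230 replicates 1 and 2.

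At week 6 Egln3 exceeded the glands by 0.984 ± 0.185 in 4T1 tumors (about 7.68-fold, limma adjusted p = 6.56e-05) and by 1.10 ± 0.185 in Py230 tumors (about 9.77-fold, adjusted p = 3.29e-05). The difference between models with glands subtracted did not pass the test at any week. In Py230 tumors Egln3 was 0.584 ± 0.185 above the gland at week 3 (limma adjusted p = 0.0273), but not past the threshold without Py230 replicate 1 (0.24) or 2 (0.0648), without any 1 of the 3 C57BL/6 glands (0.0658 to 0.0708) or in a fit of the compared groups alone (0.105). Over the 12 group means, Egln3 was the gene of the set whose scores went most closely with those of Car9 (Pearson r = 0.962), ahead of Hif1a (0.814), Slc2a1 (0.754), Ankrd37 (0.732) and Pgk1 (0.624). Ldha (-0.171), Ndrg1 (-0.152) and Pdk1 (-0.0826) did not follow Car9, and Bnip3 ran the other way (-0.605). Genes outside the set were compared as well, if they had a symbol and a mean score above the library average. Car9 itself lay below that average (mean score -0.351), so genes as low as Car9 were not compared. Of the genes compared, the 5 most like Car9 were Atp11b (0.988), Mitd1 (0.986), Rbm8a (0.985), Ints2 (0.984) and Cct3 (0.984). All 5 had a smaller range of group means than Car9. These are descriptions over 12 points that share strains and weeks.

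Hif1a, the oxygen-regulated subunit, scored from 1.06 to 1.31 in the glands, from 1.28 to 1.75 in the 9 4T1 and from 1.16 to 1.52 in the 9 Py230 tumors. At week 6 the 4T1 libraries (1.63, 1.75 and 1.58) and the Py230 libraries (1.465, 1.523 and 1.504) did not overlap with each other or with any gland. The rise over the glands was 0.480 ± 0.0755 in 4T1 (about 2.70-fold, limma adjusted p = 6.9e-06) and 0.269 ± 0.0755 in Py230 tumors (about 1.75-fold, adjusted p = 0.0047). Between the models the difference of 0.154 ± 0.0755 did not pass the test (adjusted p = 0.108). At week 1, 4T1 libraries scored 1.52, 1.29 and 1.53, and rose 0.273 ± 0.0755 over BALB/c glands (limma adjusted p = 0.0182). This call was lost without 4T1 replicate 1 (0.0997) or 3 (0.118) or BALB/c gland replicate 2 (0.125).

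Slc2a1, the glucose transporter GLUT1, was called higher than in the gland in 4T1 and not in Py230 tumors, and the difference between the models was tested as well. The glands scored from 0.539 to 0.904. At week 6 the 4T1 libraries scored 1.51, 1.54 and 1.23 and the Py230 libraries 0.859, 0.930 and 0.813, so that every 4T1 library lay above every Py230 library and above every gland, whereas 2 of the 3 Py230 libraries lay within the range of the glands. The rise over the gland was 0.766 ± 0.106 in 4T1 tumors (about 4.89-fold, limma adjusted p = 1.19e-06), beside 0.182 ± 0.106 in Py230 tumors (adjusted p = 0.163, but 0.0289 in a fit of the compared groups alone). The difference between the models was 0.558 ± 0.106 (about 3.18-fold, limma adjusted p = 0.000118), and 0.583 ± 0.150 with glands subtracted (0.00491). At week 3, 4T1 replicate 1 scored 1.14 and replicates 2 and 3 scored 0.686 and 0.617.

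Pgk1, which makes ATP in glycolysis by taking a phosphate from bisphosphoglycerate, rose by about the same score in both models at week 6. Its scores were 1.12, 1.15 and 0.975 in 4T1 tumors and 0.814, 0.978 and 0.670 in Py230 tumors, beside 0.721, 0.907 and 0.713 in BALB/c and 0.447, 0.571 and 0.530 in C57BL/6 glands. The differences from the glands were 0.2997 ± 0.114 (limma adjusted p = 0.0261) and 0.304 ± 0.114 (adjusted p = 0.0299). Neither was stable. For 4T1 the call was lost after quantile normalization (adjusted p = 0.0625) and without any of 4 of the 6 libraries, and for Py230 without any of 4 of the 6.

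Ldha, the subunit of lactate dehydrogenase that favors the step from pyruvate to lactate, was not called in any comparison. Its scores ran from 1.80 to 2.33 over all 36 libraries, from 1.87 to 2.07 in 4T1 and from 1.80 to 2.02 in Py230 tumors, and from 1.80 to 2.33 in the glands. At week 6 it was -0.142 ± 0.106 from BALB/c glands in 4T1 tumors (limma adjusted p = 0.252). The highest Ldha scores were in glands: 2.33 in BALB/c replicate 2 and 2.28 in C57BL/6 replicate 2 at week 1, and 2.24 in BALB/c replicate 2 at week 6. These libraries also had the 3 highest means of the 6 skeletal muscle markers (Acta1 and Ckm first), 2.76, 2.90 and 2.86, in a list that spanned -0.476 to 2.90 over the glands and -0.641 to 2.40 over the tumors. In whole tissue, fewer cells of a type and less RNA per cell cannot be told apart, and the part of muscle or fat in the score of any of these genes was not tested.

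Pdk1, a kinase that restrains the use of pyruvate in the mitochondrion, was called higher than in the gland in neither tumor. Its scores ran from 0.851 to 1.35 in the glands, from 0.584 to 1.03 in 4T1 and from 0.873 to 1.13 in Py230 tumors. At week 1 the 4T1 libraries (0.752, 0.737 and 0.584) lay below every gland, -0.373 ± 0.0991 from the BALB/c glands (limma adjusted p = 0.015). This call was lost without 4T1 replicate 1 or 3, or without BALB/c gland replicate 2 (-0.233, adjusted p = 0.148), the library with 1.34 for Pdk1 and the high muscle mean.

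Bnip3, a protein of the outer mitochondrial membrane that takes part in mitophagy, is a known HIF target and fell in Py230 tumors. C57BL/6 glands scored 1.01, 0.818 and 0.873 at week 3 and 0.647, 0.964 and 0.843 at week 6. Py230 tumors scored 0.809, 0.593 and 0.530 at week 1, -0.153, 0.410 and 0.698 at week 3, and -0.0923, 0.186 and 0.0503 at week 6, where all 3 lay below every gland and every 4T1 library of that week. 4T1 tumors scored 0.698, 0.789 and 0.474 at week 6, within the range of the glands (0.370 to 1.01). Against its own glands the Py230 difference was -0.770 ± 0.165 at week 6 (about 0.203 times the gland level, limma adjusted p = 0.00045), and the 4T1 difference was -0.0188 ± 0.165.

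Between models Bnip3 was higher in 4T1 tumors at week 6 by 0.606 ± 0.165 (about 3.51-fold, limma adjusted p = 0.00426). With glands subtracted the difference was 0.751 ± 0.234 (adjusted p = 0.0185), but without 4T1 replicate 2, Py230 replicate 1 or C57BL/6 gland replicate 2 it was not past the threshold. At week 3 the fall in Py230 tumors (-0.582 ± 0.165, limma adjusted p = 0.0149) rested on replicate 1, without which it was -0.347 (0.249), and on C57BL/6 gland replicate 1. The adipocyte marker mean of the Py230 libraries at week 3 was 0.496 in replicate 1 and 1.79 and 2.05 in replicates 2 and 3, in the order of their Bnip3 scores. 4T1 tumors at week 6 had adipocyte means of 0.174 or less with Bnip3 at the level of the glands. The part of fat in these Bnip3 scores was not tested.

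Ndrg1, a stress- and hypoxia-responsive gene linked to differentiation, moved in opposite directions. At week 6 the 4T1 libraries scored 1.84, 1.74 and 1.56 and the Py230 libraries 1.03, 1.17 and 1.05, beside 1.38, 1.39 and 1.43 in BALB/c and 1.47, 1.38 and 1.44 in C57BL/6 glands. Every 4T1 library was above, and every Py230 library below, all glands of that week. Over the 18 glands of all weeks (1.29 to 1.73), 4T1 replicate 3 lay within the range and every Py230 library below it. The BALB/c gland mean was 1.61 at week 1 and 1.40 at week 6, beside 1.65 and 1.71 in 4T1 tumors. The difference from the own glands was 0.311 ± 0.0783 in 4T1 (about 1.91-fold, limma adjusted p = 0.00138) and -0.347 ± 0.0783 in Py230 tumors (about 0.487 times, adjusted p = 0.000722). Between models it was 0.632 ± 0.0783 (about 3.71-fold, limma adjusted p = 2.63e-07), and 0.658 ± 0.111 with glands subtracted (6.19e-05). This was the smallest adjusted p of the set between the models at week 6, and it stayed past the threshold with each library left out and in each other processing.

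At the earlier weeks Ndrg1 was also higher in the 4T1 model, by 0.242 ± 0.0783 at week 1 (limma adjusted p = 0.0313) and by 0.248 ± 0.0783 at week 3 (0.0175). With glands subtracted these became 0.0456 ± 0.111 (adjusted p = 0.869) and 0.112 ± 0.111 (0.562). BALB/c glands were 0.196 ± 0.0783 above C57BL/6 glands at week 1 (adjusted p = 0.257, and 0.0211 without BALB/c replicate 2). The call at week 3 was lost without 4T1 replicate 1 (adjusted p = 0.139) or Py230 replicate 1 (0.119).

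Ankrd37, a small ankyrin-repeat protein and HIF target, was the least expressed of the set. Its glands scored from -1.47 to -0.986. 4T1 tumors scored -0.823, -1.21 and -0.906 at week 1, -0.786, -1.12 and -1.36 at week 3, and -0.454, -0.4102 and -0.5998 at week 6, where all 3 were above every gland. Py230 tumors scored -1.02, -0.945 and -1.21 at week 6, and replicates 1 and 3 lay within the range of the glands. The rise at week 6 was 0.745 ± 0.117 in 4T1 (about 4.69-fold, limma adjusted p = 6.6e-06) and 0.314 ± 0.117 in Py230 tumors (about 1.92-fold, adjusted p = 0.029, lost without Py230 replicate 1 or 2 or C57BL/6 gland replicate 2 or 3). The models differed by 0.569 ± 0.117 (limma adjusted p = 0.000284), and by 0.432 ± 0.165 with glands subtracted (adjusted p = 0.0559, and 0.0254 after quantile normalization).

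**Figure D3:**
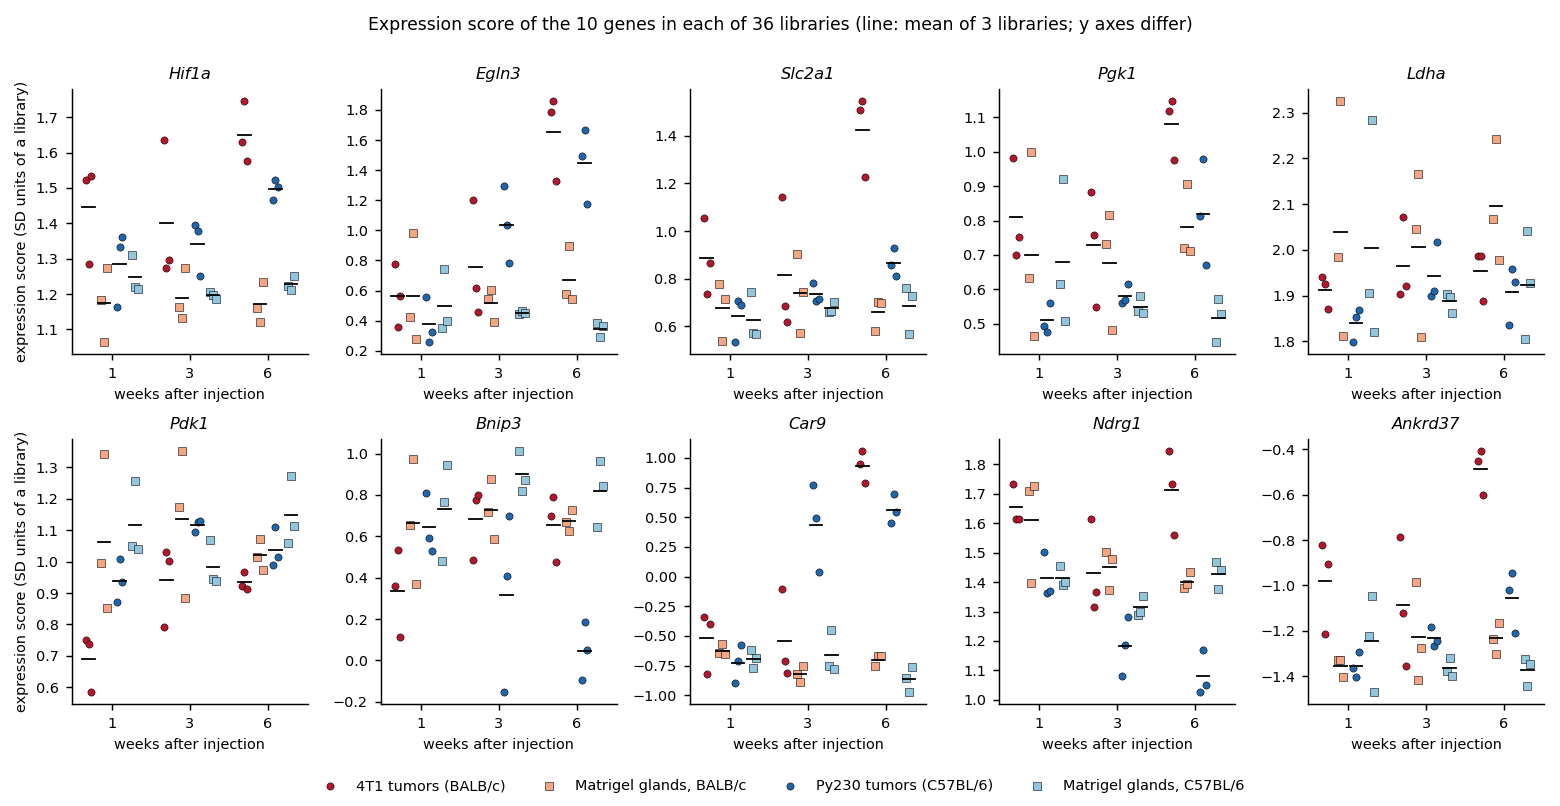
Expression score (y axis, SD units of a library, scales differ between panels) of the 10 genes in each of the 36 libraries against weeks after injection (x axis), with a line at the mean of 3 libraries. Car9 of Py230 tumors lies above all glands from week 3 (0.0414 to 0.768) and that of 4T1 tumors at week 6 (0.791 to 1.05), and Bnip3 of Py230 tumors lies below all other libraries of week 6 (-0.0923 to 0.186).

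The comparison of the models, which asks how the metastatic 4T1- and the Py230-based tumors differ at each time, called 2 members at week 1 (Ndrg1 and Ankrd37 higher in 4T1), 2 at week 3 (Ndrg1 higher and Car9 lower) and 4 at week 6 (Slc2a1, Bnip3, Ndrg1 and Ankrd37 higher). Of all genes, 11% were called higher and 8.43% lower at week 1, 11.9% and 18.5% at week 3, and 24.1% and 16.7% at week 6. The counts at weeks 1 and 3 are near these shares. At week 6, 4 of 10 were called higher and 0 lower. The median difference of the 10 genes was 0.199, 0.0711 and 0.315 at the 3 times, beside 0.0055, -0.0112 and 0.0364 for all genes. The count at week 1 fell to 0 without 4T1 replicate 1 or 3 or Py230 replicate 2, was 1 without Py230 replicate 1 or 3 and rose to 5 without 4T1 replicate 2, whose Car9 and Ankrd37 were at the level of the glands. At week 3, leaving out Py230 replicate 1 gave 1 call and a fit of the 2 groups alone gave 0, though 7 at week 6.

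The models were also compared with the Matrigel glands of its strain subtracted from each tumor. This takes out a strain difference only where a tumor carries it as its glands do, which was not tested. In this form 0 members were called at week 1 (0.24% of all genes higher and 0.0647% lower, 2 members at an unadjusted p under 0.05). At week 3 it was 1 (Car9 lower, beside 2.64% higher and 6.51% lower), and at week 6 it was 3 (Slc2a1, Bnip3 and Ndrg1 higher, beside 14.4% and 11.1%). Between BALB/c and C57BL/6 glands limma called no member at any of the 3 weeks, with 3.06%, 3.77% and 3.84% of all genes called in either direction and 1, 0 and 1 members at an unadjusted p under 0.05.

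**Figure D4:**
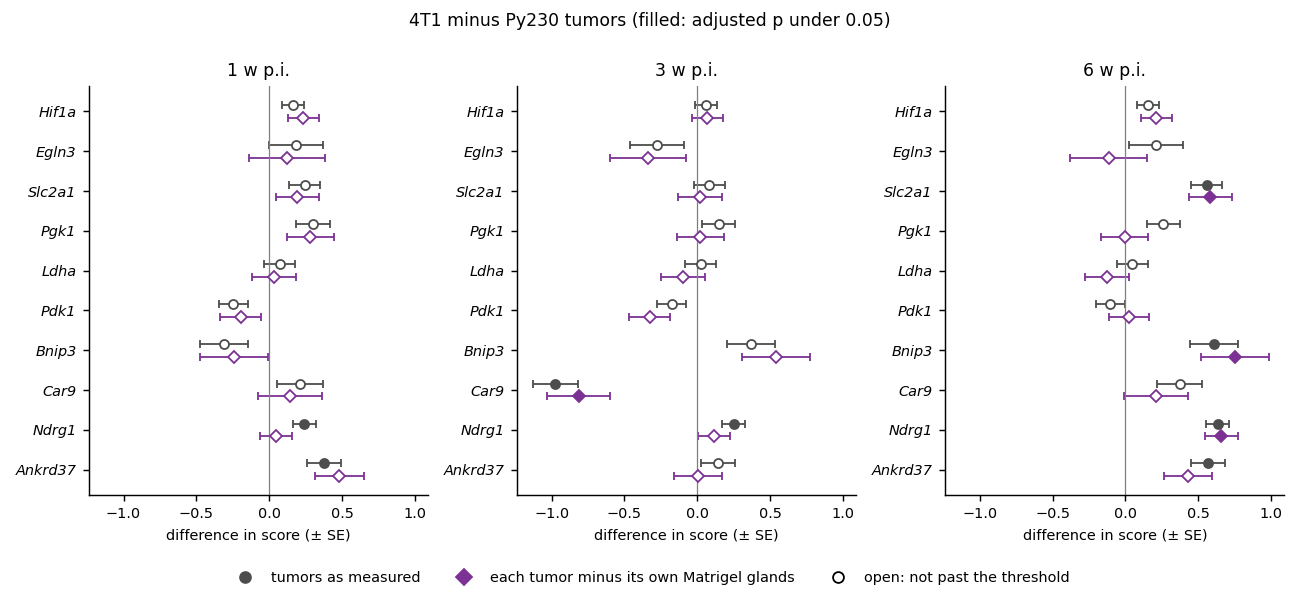
Difference in expression score (x axis, SD units of a library, bars ± SE from limma) between 4T1 and Py230 tumors for the 10 genes (y axis) at weeks 1, 3 and 6, as measured (circles) and with each tumor's own Matrigel glands subtracted (diamonds), with filled symbols for an adjusted p under 0.05. Car9 lies left of 0 at week 3 (-0.97 and -0.816), and Slc2a1, Bnip3 and Ndrg1 lie right of 0 at week 6 in both forms.

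The models changed at different times. From week 1 to week 3 no member was called in 4T1 tumors (0.254% of all genes higher, 0.374% lower, 3 members at an unadjusted p under 0.05), or 2 without 4T1 week 3 replicate 1, while in Py230 tumors Egln3 (0.658 ± 0.185, limma adjusted p = 0.0144) and Car9 (1.16 ± 0.155, 1.61e-05) rose and Ndrg1 fell by 0.229 ± 0.0783 (0.0397), beside 12.8% of all genes higher and 7.17% lower. From week 3 to week 6, 7 members rose in 4T1 tumors (34.2% of all genes higher, 18.8% lower) and none was called in Py230 tumors (3.96% and 2.06%, 3 members at an unadjusted p under 0.05). The 7 were Car9 (1.47 ± 0.155), Egln3 (0.896 ± 0.185), Slc2a1 (0.611 ± 0.106), Ankrd37 (0.5996 ± 0.117), Pgk1 (0.351 ± 0.114), Ndrg1 (0.281 ± 0.0783) and Hif1a (0.249 ± 0.0755). The Py230 count from week 1 to week 3 was 1 without week 1 replicate 2 or 3 or week 3 replicate 1, and that from week 3 to week 6 was 1 (Bnip3) without week 3 replicate 1. The Hif1a and Ndrg1 libraries of 4T1 tumors at weeks 3 and 6 overlapped. In a fit of these 4T1 groups alone the count was 5, without Hif1a (limma adjusted p = 0.11) and Ndrg1 (0.0762). The Hif1a call was also lost without week 3 replicate 2 (0.0646) or 3 (0.0545) or week 6 replicate 2 (0.0505). That of Pgk1 was lost without week 3 replicate 3 (0.0877).

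The difference between these courses was tested as the change of the 4T1 minus Py230 difference. From week 1 to week 3 it passed for Car9 (-1.19) and for Bnip3 (0.676 ± 0.234, limma adjusted p = 0.0498, lost without any of 9 of the 12 libraries), beside 15.3% of all genes. From week 3 to week 6 it passed for Car9 (1.35), Slc2a1 (0.478 ± 0.150, limma adjusted p = 0.0196) and Ndrg1 (0.384 ± 0.111, adjusted p = 0.0114), beside 26.7% of all genes. The call of Slc2a1 was lost without 4T1 week 3 replicate 2 (limma adjusted p = 0.0603) or 3 (0.0709), without 4T1 week 6 replicate 1 (0.05) or 2 (0.0593), and in a fit of the compared groups alone (0.0932). That of Ndrg1 was lost only in the fit of the compared groups (adjusted p = 0.0729). Without 4T1 week 3 replicate 1, the library of its group least like the glands, the count from week 3 to week 6 was 5.

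A wider list of 59 genes of the same pathway, of which 58 were measured (Aldoa had no row under its symbol), was grouped by role. At week 6, 22 of the 58 were called higher and 13 lower in 4T1 tumors than in BALB/c glands (38.6% and 21.5% of all genes), and 19 higher and 13 lower in Py230 tumors than in C57BL/6 glands (28.8% and 18.7%), with median differences of 0.139 and -0.0074. Between the models 19 were higher and 7 lower in 4T1 at week 6 (24.1% and 16.7% of all genes), 11 and 7 at week 3 (11.9% and 18.5%), and 4 and 2 at week 1 (11% and 8.43%). With glands subtracted, 9 were higher and 5 lower at week 6 (14.4% and 11.1% of all genes), 2 and 6 at week 3 (2.64% and 6.51%), and 1 and 0 at week 1 (0.24% and 0.0647%). The list was chosen with earlier results of these data known, and its counts carry no test.

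Against the glands at week 6, counts by role are given beside the shares of all genes. The roles hold few genes, and differences between roles were not tested. Of all genes, 38.6% were higher and 21.5% lower in 4T1 tumors, and 28.8% and 18.7% in Py230 tumors. Of 9 HIF subunits and regulators, 0 were called higher and 5 lower in 4T1 tumors, and 2 and 3 in Py230 tumors. Of 16 genes of glucose transport and glycolysis, 6 were higher and 3 lower in 4T1 tumors, and 4 and 2 in Py230 tumors, which is near the shares of all genes. Of 8 genes of mitochondrial adaptation, 2 were higher and 2 lower in 4T1 tumors, and 1 and 4 in Py230 tumors. For 5 genes of lactate and pH handling the counts were 1 and 1 in 4T1 and 1 and 0 in Py230 tumors, and for 6 secreted and vascular signals 2 and 2 in 4T1 and 1 and 3 in Py230 tumors.

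Among HIF subunits and regulators, Epas1, which encodes the HIF-2 alpha subunit, fell in both models at week 6, with a difference from the gland of -0.853 in 4T1 and -0.524 in Py230 tumors, and was lower in 4T1 than in Py230 tumors by -0.418 ± 0.0890 (limma adjusted p = 0.000418). At week 1 this difference was -0.267 ± 0.0890 (limma adjusted p = 0.036). Egln1, the main oxygen-sensing hydroxylase, was 0.287 ± 0.0826 higher in 4T1 tumors at week 3 and 0.324 ± 0.0826 at week 6 (adjusted p = 0.0098 and 0.00236). Vhl, which marks hydroxylated HIF for destruction, was 0.128 ± 0.0453 higher at week 1 (adjusted p = 0.048). With glands subtracted none of these passed (limma adjusted p = 0.219 and 0.0551 for Epas1 at weeks 1 and 6, 0.4 and 0.189 for Egln1 at weeks 3 and 6, and 0.114 for Vhl).

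Between the models, 5 of the 16 genes of glucose transport and glycolysis were higher and 1 lower in 4T1 tumors at week 6 (24.1% and 16.7% of all genes), 4 and 3 at week 3 (11.9% and 18.5%), and 3 and 0 at week 1 (11% and 8.43%). With glands subtracted the counts were 2 and 1 at week 6 (14.4% and 11.1% of all genes). They were 1 and 3 at week 3 (2.64% and 6.51%), and 1 and 0 at week 1 (0.24% and 0.0647%). Slc2a3, the transporter GLUT3, was higher in 4T1 tumors by 0.322 ± 0.0883 at week 1 and 0.638 ± 0.0883 at week 3 (limma adjusted p = 0.0126 and 6.15e-06), and stayed so with glands subtracted (0.0427 and 0.00309). Eno2, the gamma enolase, was 0.760 ± 0.103 higher at week 6 (1.02e-06), being 0.309 above the gland in 4T1 and -0.303 from it in Py230 tumors. Aldoc, an aldolase isozyme, went the other way, with -0.866 ± 0.116 at week 3 and -1.16 ± 0.116 at week 6 (limma adjusted p = 4.27e-06 and 6.85e-09, or 0.00106 and 4.59e-06 with glands subtracted), being -0.594 from the gland in 4T1 and 0.594 above it in Py230 tumors at week 6. Pfkfb4, which sets the level of an activator of glycolysis, was 0.304 ± 0.0927 higher in 4T1 tumors at week 1 (adjusted p = 0.0229, or 0.0869 with glands subtracted).

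Among genes of mitochondrial adaptation, Bnip3l, the close relative of Bnip3, was 0.201 ± 0.0312 higher in 4T1 tumors at week 6 (limma adjusted p = 7.88e-06), with 0.136 over the gland in 4T1 and -0.115 in Py230 tumors. Mxi1, a repressor that opposes Myc, was 0.163 ± 0.0458 and 0.350 ± 0.0458 higher in 4T1 tumors at weeks 3 and 6 (adjusted p = 0.00839 and 6.2e-07), and with glands subtracted 0.322 and 0.000941 were the adjusted p-values. Pdk3, a relative of Pdk1, was -0.340 ± 0.0925 lower at week 3 (adjusted p = 0.00665, or 0.519 with glands subtracted).

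In lactate and pH handling, Car12, the other tumor-associated membrane carbonic anhydrase, was lower in 4T1 than in Py230 tumors by -1.30 ± 0.152 at week 3 and by -0.750 ± 0.152 at week 6 (limma adjusted p = 5.05e-07 and 0.00025), and with glands subtracted as well (0.000368 and 0.0115). In Py230 tumors it stood 1.08 above the gland at week 6, beside 0.332 in 4T1 tumors (adjusted p = 0.0615). Slc16a3, the lactate exporter MCT4, was 0.682 ± 0.245 higher in 4T1 tumors at week 6 (limma adjusted p = 0.0274), but 0.168 with glands subtracted (0.77).

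Of the secreted and vascular signals, Stc2, a secreted glycoprotein, was -1.43 ± 0.146 lower in 4T1 tumors at week 6 (limma adjusted p = 9.94e-09), being -1.57 from the BALB/c gland while Py230 tumors (0.0478) were at the level of theirs. Adm, which encodes the vasodilator adrenomedullin, was 0.444 ± 0.0993 higher in 4T1 tumors (0.000687, or 0.0203 with glands subtracted). Vegfa, the main vascular growth factor, was -0.354 ± 0.102 lower in 4T1 tumors at week 1 (limma adjusted p = 0.017, or 0.222 with glands subtracted), and at week 6 was 0.0192 from the gland in 4T1 tumors and -0.292 in Py230 tumors (adjusted p = 0.0203). Angptl4, a lipase inhibitor strongly expressed in fat, was 0.599 ± 0.224 higher in 4T1 tumors at week 3 (limma adjusted p = 0.0433, or 0.378 with glands subtracted). Pgf, a relative of Vegfa, was -0.343 ± 0.111 lower at week 3 (limma adjusted p = 0.0207, or 0.0323 with glands subtracted).

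Of 5 matrix and protein folding enzymes, 4 were called higher than in the gland in 4T1 tumors at week 6 and 4 in Py230 tumors, with 0 lower, beside 38.6% and 28.8% of all genes called higher. At weeks 1 and 3 limma called 0 of the 5 in either model, with 1 and 4 in 4T1 and 0 and 1 in Py230 tumors at an unadjusted p under 0.05. Of all genes, 9.91% and 2.1% were called higher and 6.72% and 1.15% lower in 4T1 tumors at weeks 1 and 3. In Py230 tumors 0% and 12.8% were called higher and 0.00924% and 6.9% lower. At week 6 P4ha1, a subunit of the collagen prolyl hydroxylase, was 0.632 over the gland in 4T1 and 0.216 in Py230 tumors, and 0.472 ± 0.0739 higher in 4T1 (limma adjusted p = 9.21e-06, or 0.00394 with glands subtracted). At week 3 it was 0.330 ± 0.0739 higher (0.00142, or 0.026 with glands subtracted). Ero1a, the oxidase that forms disulfide bonds in the endoplasmic reticulum, was 0.283 ± 0.0775 higher (0.00434, or 0.074 with glands subtracted). Lox, which cross-links collagen, was 0.412 ± 0.118 higher in 4T1 tumors at week 3 (adjusted p = 0.00928, or 0.238 with glands subtracted).

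Of the other HIF targets, 7 of 9 were higher and 0 lower than in the gland in 4T1 tumors at week 6 (38.6% and 21.5% of all genes), and 6 higher and 1 lower in Py230 tumors (28.8% and 18.7%). Hilpda, a lipid droplet protein, was the gene that was lower in Py230 tumors (-0.241), and it was higher in 4T1 tumors (0.386). The models differed by 0.506 ± 0.0727 (limma adjusted p = 2.64e-06, or 4.49e-05 with glands subtracted). Hmox1, heme oxygenase, was 0.504 ± 0.133 and 0.346 ± 0.133 higher in 4T1 tumors at weeks 3 and 6 (limma adjusted p = 0.00521 and 0.0382, or 0.0917 and 0.368 with glands subtracted). Jmjd6, an oxygen-dependent hydroxylase, was -0.219 ± 0.0534 lower at week 3 (limma adjusted p = 0.00281, or 0.0309 with glands subtracted). Ndrg1, Hilpda, Eno2 and Bnip3l had the same form at week 6: each rose over the gland in 4T1 tumors, fell below it in Py230 tumors, and differed between the models with glands subtracted. Hilpda, Eno2 and Bnip3l were named for their large difference between the models, a rule that favors such opposite moves. How many of all genes had this form was not counted.

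**Figure D5:**
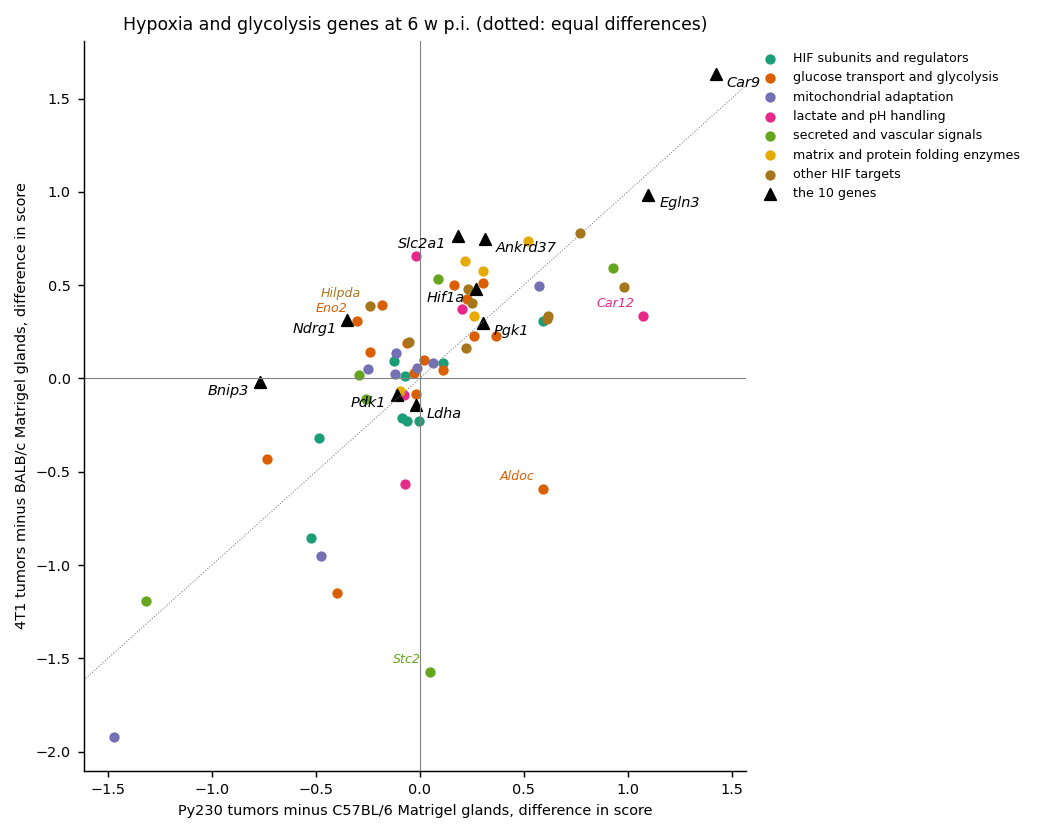
Difference in expression score from the Matrigel glands of the same strain at 6 w p.i. in Py230 tumors (x axis) and 4T1 tumors (y axis), in SD units of a library, for the 10 genes (triangles) and 58 further genes of the pathway (dots, colored by role), with a dotted line where both differences are equal. Car9 (1.42 and 1.63) and Egln3 (1.10 and 0.984) lie near this line at the upper right, Ndrg1, Eno2 and Hilpda lie at the upper left, and Aldoc (0.594 and -0.594) lies at the lower right.

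Marker lists of other cell types differed as well. At week 6, 38.6% of all genes were called higher and 21.5% lower in 4T1 tumors than in glands. In Py230 tumors these shares were 28.8% and 18.7%, and for 4T1 minus Py230 tumors 24.1% and 16.7%. At week 6 the neutrophil list (S100a8 and S100a9 first) had 5 of 5 markers called higher in 4T1 tumors than in glands and 3 of 5 in Py230 tumors, and 5 of 5 higher in 4T1 than in Py230 tumors, with library means of 0.181 to 0.394 in 4T1, -0.670 to -0.498 in Py230 tumors and -1.26 to -1.14 in glands of that week. The proliferation list (Mki67 and Top2a first) was called higher for 5 of 5 markers in each model at week 6 (means of 0.898 to 1.15 and 0.861 to 1.02, against -0.286 to 0.234 in glands) and for 0 of 5 between them. The endothelial list (Pecam1 and Cdh5 first) was lower for 3 of 5 markers in 4T1 and 4 of 5 in Py230 tumors. Adipocyte markers were lower for 6 of 6 in both models, and skeletal muscle markers for 6 of 6 in 4T1 and 0 of 6 in Py230 tumors, whose muscle mean ran from -0.587 to 1.42. Basal markers (Krt5 and Krt14 first) were lower than in the gland for 5 of 5 in 4T1 and 1 of 5 in Py230 tumors, and for 3 of 5 between the models. Lactating epithelium markers (Csn2 and Csn1s1 first) were lower for 3 of 5 in 4T1 tumors and for 4 of 5 between the models. In Py230 tumors 1 of these 5 was higher and 2 were lower. Fibroblast markers were lower than in the gland for 2 of 4 in 4T1 and 3 of 4 in Py230 tumors, and 1 of 4 was higher in 4T1 than in Py230 tumors. Of 5 luminal markers, 1 was higher and 1 lower than in the gland in 4T1 tumors, and 2 were higher and 0 lower in Py230 tumors. Between the models 2 of these 5 were lower and 0 higher in 4T1 tumors at week 6. The same counts held at week 3, where 11.9% of all genes were higher and 18.5% lower.

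Macrophage markers (Adgre1 and Csf1r first) were called higher in 4T1 tumors than in glands for 5 of 5 at week 1. The counts were 2 of 5 at week 3 and 1 of 5 at week 6. Of all genes 9.91%, 2.1% and 38.6% were called higher at weeks 1, 3 and 6. Between the models 1 of 5 was higher in 4T1 at week 1, 5 of 5 at week 3 and 0 of 5 at week 6. Of all genes 11%, 11.9% and 24.1% were higher in 4T1 at these weeks. With glands subtracted, 1 of 5 macrophage markers was higher at week 3 (2.64% of all genes). The library means of the macrophage list at week 3 were 2.17, 1.72 and 1.60 in 4T1 and 1.22, 1.31 and 1.32 in Py230 tumors. In the glands of both strains they were 1.14 to 1.48. Between the models, neutrophil markers were higher in 4T1 for 2 of 5 at week 1 and 3 of 5 at week 3, and lactating epithelium markers for 5 of 5 at week 1. The part of these cell types in the differences of the 10 genes was not tested.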

How the data were processed

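RNA of whole primary tumors and Matrigel glands was sequenced in 36 libraries, 3 in each of 12 groups. According to the methods and labels, paired-end reads were aligned with STAR to mm10, counted per gene and normalized with DESeq2 by the authors, with versions not given in the sources used here. The deposited expression values are scores with a mean of 0 and an SD of 1 in each library, a step that the methods do not describe. Counts per library were not analysed here, so depth is unknown and no count test was run. The authors' mean normalized count of each gene, another deposited value, was used only to convert scores to approximate log2 units. The deposited fold changes, p-values and gene set tables of the authors were not used.

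Groups followed the labels. limma 3.58.1 in R 4.3.3 fitted 1 mean per group to all 36 libraries with trended, robust empirical Bayes, and p-values were adjusted by Benjamini-Hochberg over 21650 genes. Symbols of 5384 genes came from the reference annotation. The fit was tested on simulated data. The 10 genes, the pathway list and the marker lists were chosen with earlier results of these data known. Genes named beyond the 10 were the 2 called genes of each role with the largest difference between the models at each week. Also named were the 5 genes most like Car9 among those with a symbol and a mean score above the library average. Alternatives were quantile normalization, a filter on low scores, a fit of the compared groups alone, plain empirical Bayes, a replicate block and each library left out.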

Additional observations from a re-analysis of the deposited data

Results flagged for a closer look

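The difference between 4T1 tumors and their glands was set against the same difference for Py230 tumors, and 4 of the 10 genes passed limma's test of this contrast at 1 week or more. Car9 differed at week 3 (-0.816 ± 0.219, limma adjusted p = 0.0213), and Slc2a1 (0.583 ± 0.150, adjusted p = 0.00491), Bnip3 (0.751 ± 0.234, adjusted p = 0.0185) and Ndrg1 (0.658 ± 0.111, adjusted p = 6.19e-05) differed at week 6.

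The change of the 4T1 minus Py230 difference between weeks also passed for 4 of the genes. From week 1 to week 3 it was 0.676 ± 0.234 for Bnip3 (limma adjusted p = 0.0498) and -1.19 ± 0.219 for Car9 (adjusted p = 0.00132). From week 3 to week 6 it was 0.478 ± 0.150 for Slc2a1 (limma adjusted p = 0.0196), 1.35 ± 0.219 for Car9 (adjusted p = 5.56e-05) and 0.384 ± 0.111 for Ndrg1 (adjusted p = 0.0114).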

How the results depend on the processing

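Counts of called genes among the 10 are given as the value under the alternative, against the value reported. A fit of the compared groups alone gave 0 for 4T1 minus Py230 at weeks 1 and 3 (2 and 2 reported) and 7 at week 6 (4). With glands subtracted it gave 0 at week 3 (1) and 5 at week 6 (3). It gave 0 for 4T1 minus glands at week 1 (3), for Py230 minus glands at week 3 (3) and for Py230 week 3 minus week 1 (3). For the change of the difference it gave 0 from week 1 to 3 (2) and 1 from week 3 to 6 (3). Such a fit holds fewer libraries and takes the spread of each gene from the compared groups alone. The filter on low scores leaves out Car9 and Ankrd37, and so gave 1 for 4T1 minus Py230 at weeks 1 and 3, 0 at week 3 with glands subtracted and 1 for the change from week 1 to 3. Plain empirical Bayes gave 1 for this last change. Quantile normalization kept each of these counts within 1.5 times.

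With 1 library left out, 4T1 minus Py230 ranged from 0 to 5 at week 1, 1 to 3 at week 3 and 4 to 5 at week 6, and with glands subtracted from 0 to 1, 0 to 2 and 2 to 4. 4T1 minus glands ranged from 0 to 3, 0 to 1 and 6 to 7, and Py230 minus glands from 0 to 0, 1 to 3 and 5 to 7. The strains' glands ranged from 0 to 1 at week 1 and stayed at 0 later. The changes with time ranged from 0 to 2 (4T1, week 1 to 3), 1 to 4 (Py230, week 1 to 3), 5 to 7 (4T1, week 3 to 6) and 0 to 1 (Py230, week 3 to 6), and those of the difference from 1 to 3 and from 2 to 5. With glands subtracted at week 3, the count was 0 without 4T1 replicate 2, Py230 replicate 1 or C57BL/6 gland replicate 1 or 3, and 2 without Py230 replicate 3 or BALB/c gland replicate 3. At week 1 it was 1 without 4T1 replicate 2.

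Replicate numbers are shared by the groups and were not taken as pairing. Residuals correlated above 0.1 in 80 of the 198 same-numbered pairs, and 17 of 36 libraries correlated best with their own number. No level for libraries of different numbers was set beside these counts, so they cannot decide whether the numbers pair. With the replicate block the count for 4T1 minus Py230 at week 1 was 4, and over single genes 5 results passed the threshold that had not, and 0 were lost. No called difference changed sign under any alternative. The wider list gave 1 (6 reported) and 2 (18) called genes for 4T1 minus Py230 at weeks 1 and 3 in a fit of the compared groups alone. Groups of 3 and values without counts limit the precision, and the depth behind a low gene such as Ankrd37 is not known per library.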
